A study of Mus musculus with 12 samples.

Results

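The genes described here are 41 of the 33924 in the count table, chosen by name: the sensors and transcription factors of the unfolded protein response, the chaperones and disulfide isomerases of the endoplasmic reticulum (ER), the channel through which new proteins enter the ER, and the machinery of ER-associated degradation. They were measured in mouse bone marrow myeloid progenitors, sorted as single live cells that were negative for lineage markers and Sca1 and positive for c-Kit. There were 12 libraries in 4 groups of 3: old hets (Mx+ Wt1fl/+, labelled old chronic), old controls (Mx+ Wt1+/+, old chronic), young hets (Mx+ Wt1fl/+, young acute) and young controls (Mx+ Wt1+/+, young acute). Wt1 encodes a zinc finger transcription factor, and the hets carry 1 floxed and 1 wild-type allele. Mx+ was common to all groups, so none of the comparisons is with animals that lack it, and the labels name no treatment and do not show how far the floxed allele was deleted in the sorted cells. The labels do not say what chronic and acute stand for, so age and condition cannot be told apart, nor do they say whether the libraries of a group came from separate animals, so the p-values measure the spread between these libraries only.

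Libraries were made from transcript 3' ends and held 645460 to 9645502 counts. Levels are given as CPM (counts scaled to a common library total), with totals adjusted by TMM; each transcript gives 1 tag, so no length correction was applied. A floor of 3 counts equals 0.272 CPM in the deepest library (old control 1) and 5.07 CPM in the shallowest (young control 2). Wt1 itself was near this floor, at 2.41, 0.798 and 2.61 CPM in old hets against 0.0906, 0.938 and 0.880 CPM in old controls, and at 2.34, 0.598 and 3.90 CPM in young hets against 6.05, 6.77 and 4.56 CPM in young controls. It was below every young control in every young het but not lower in old hets than in old controls, and at such counts it is a weak check of the genotype labels. Of the markers of the labelled cells, Kit was at 96.1 to 289 CPM and Mpo, the main granule enzyme of neutrophil precursors, at 1544 to 8435 CPM. Of the T and NK cell markers, Cd3e was at 0 in 11 libraries, but Cd3d reached 10.7 CPM and Nkg7 was at 11.8 to 146 CPM. Ly6a, which encodes Sca1, was at 0 to 1.17 CPM in 11 libraries, with 69.1 CPM in old control 1. Ddx3y, a Y-linked gene, was at 0 in young control 3, in old het 1 and in all young hets, against 108 to 154 CPM in the other libraries. Mitochondrial rRNA took 4.78, 1.40 and 4.75% of counts in old hets, 1.70, 2.38 and 2.13% in old controls, 3.51, 3.01 and 2.999% in young hets and 5.03, 8.22 and 4.35% in young controls. The young controls were the highest group in this share except for old hets 1 and 3, whose values lay among theirs. In the GENCODE annotation of GRCm38, 12 members share exon bases with another gene of the table (Ddit3, Derl2, Hsp90b1, Manf, Pdia3, Pdia4, Pdia6, Ppp1r15a, Spcs1, Spcs3, Ssr2 and Syvn1), and as the strand setting of the counting is not given, their reads cannot be told apart from those of the overlapping gene. Sex, the label numbers, the mitochondrial share and the groups were partly confounded, and their part in the results was not tested beyond the values given below.

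Proteins that enter the ER are folded there by chaperones, and when folding falls behind, 3 sensors in the ER membrane respond. IRE1 splices the mRNA of the transcription factor XBP1 into its active form, PERK slows translation through eIF2α while favouring the factor ATF4, and ATF6 is cut in the Golgi to release a transcription factor. Together these raise chaperones, translocation and degradation components. Myeloid progenitors pass through a stage at which they make large amounts of granule proteins, all of which enter through the ER.

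The ER stress response element, to which ATF6 binds together with NF-Y, joins the letters CCAAT to CCACG across 9 bases of any kind. In RefSeq promoters of build GRCm38.p6 (250 bases before to 50 after each gene's start, both strands searched), this element stood in 8 of the 34 members with a promoter (23.5%), against 24 of 16273 genes (0.147%). Of the 8, 6 were among the 9 chaperones with a promoter (Hspa5, Hsp90b1, Calr, Canx, Dnajc3 and Creld2), and the others were Pdia6 and Syvn1. Of the 7 translocon members with a promoter 0 had a match, which says only that these letters are not in that window. The matches in 6 of the 8 genes are printed 5' to 3' on the strand that reads CCAAT first, to show where they lie and what the spacers hold; capitals mark the 2 parts fixed by the search.
Calr, chr8:84847075-84847093, plus strand: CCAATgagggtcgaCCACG
Canx, chr11:50325800-50325818, minus strand: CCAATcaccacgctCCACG
Hsp90b1, chr10:86705638-86705656, minus strand: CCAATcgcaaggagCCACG
Hsp90b1, chr10:86705533-86705551, plus strand: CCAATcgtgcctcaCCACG
Hspa5, chr2:34772025-34772043, plus strand: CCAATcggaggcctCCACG
Pdia6, chr12:17266491-17266509, plus strand: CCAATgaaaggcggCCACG
Syvn1, chr19:6046532-6046550, plus strand: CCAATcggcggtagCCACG
CCAAT alone was in 25 of the 34 members (73.5%) against 42.1% of genes, and CCACG alone in 26 (76.5%) against 41.1%. A second form of the element, ATTGG followed after 1 base by CCACG, was looked for after these matches had been seen. It stood in Herpud1 and Dnajb11, 2 of 34 members (5.88%) against 8 of 16273 genes (0.0492%). TGACGTGG, the unfolded protein response element bound by XBP1, whose reverse strand holds CCACG, was in none of the 34 and in 0.86% of genes. The C/EBP-ATF response element TGATGNAAN, bound by ATF4, was in Trib3, Asns and Herpud1 (8.82% of members, 3.9% of genes). These are matches of letters, not shown to be bound in these cells.

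The promoters of Hsp90b1, Pdia6 and Herpud1 are given whole because these genes recur in the comparisons below. Capitals mark the ER stress response elements in Hsp90b1, which has 1 on each strand, and in Pdia6; in Herpud1 they mark the C/EBP-ATF element, on the reverse strand, and the second form of the ER stress response element, at -52 to -42 relative to the start.
Hsp90b1 promoter, chr10:86705395-86705694, minus strand: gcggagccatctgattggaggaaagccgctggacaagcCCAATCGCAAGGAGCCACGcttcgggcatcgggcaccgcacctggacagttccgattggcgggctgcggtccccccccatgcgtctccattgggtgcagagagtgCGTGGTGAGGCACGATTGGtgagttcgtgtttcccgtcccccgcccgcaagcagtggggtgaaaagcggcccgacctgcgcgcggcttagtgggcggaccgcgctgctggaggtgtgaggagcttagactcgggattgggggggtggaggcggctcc
Pdia6 promoter, chr12:17266339-17266638, plus strand: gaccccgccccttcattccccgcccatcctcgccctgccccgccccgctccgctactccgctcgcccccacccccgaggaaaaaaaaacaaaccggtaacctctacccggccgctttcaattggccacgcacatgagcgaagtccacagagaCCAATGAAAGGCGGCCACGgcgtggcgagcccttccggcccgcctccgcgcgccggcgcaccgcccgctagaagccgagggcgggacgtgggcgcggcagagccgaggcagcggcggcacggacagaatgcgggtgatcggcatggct
Herpud1 promoter, chr8:94386179-94386478, plus strand: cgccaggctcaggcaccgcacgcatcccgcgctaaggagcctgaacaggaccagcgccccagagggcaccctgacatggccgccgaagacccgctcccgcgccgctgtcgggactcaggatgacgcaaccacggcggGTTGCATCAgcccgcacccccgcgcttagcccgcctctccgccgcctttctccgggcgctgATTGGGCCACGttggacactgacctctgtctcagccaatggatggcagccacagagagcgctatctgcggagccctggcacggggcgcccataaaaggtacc

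**Figure D1:**
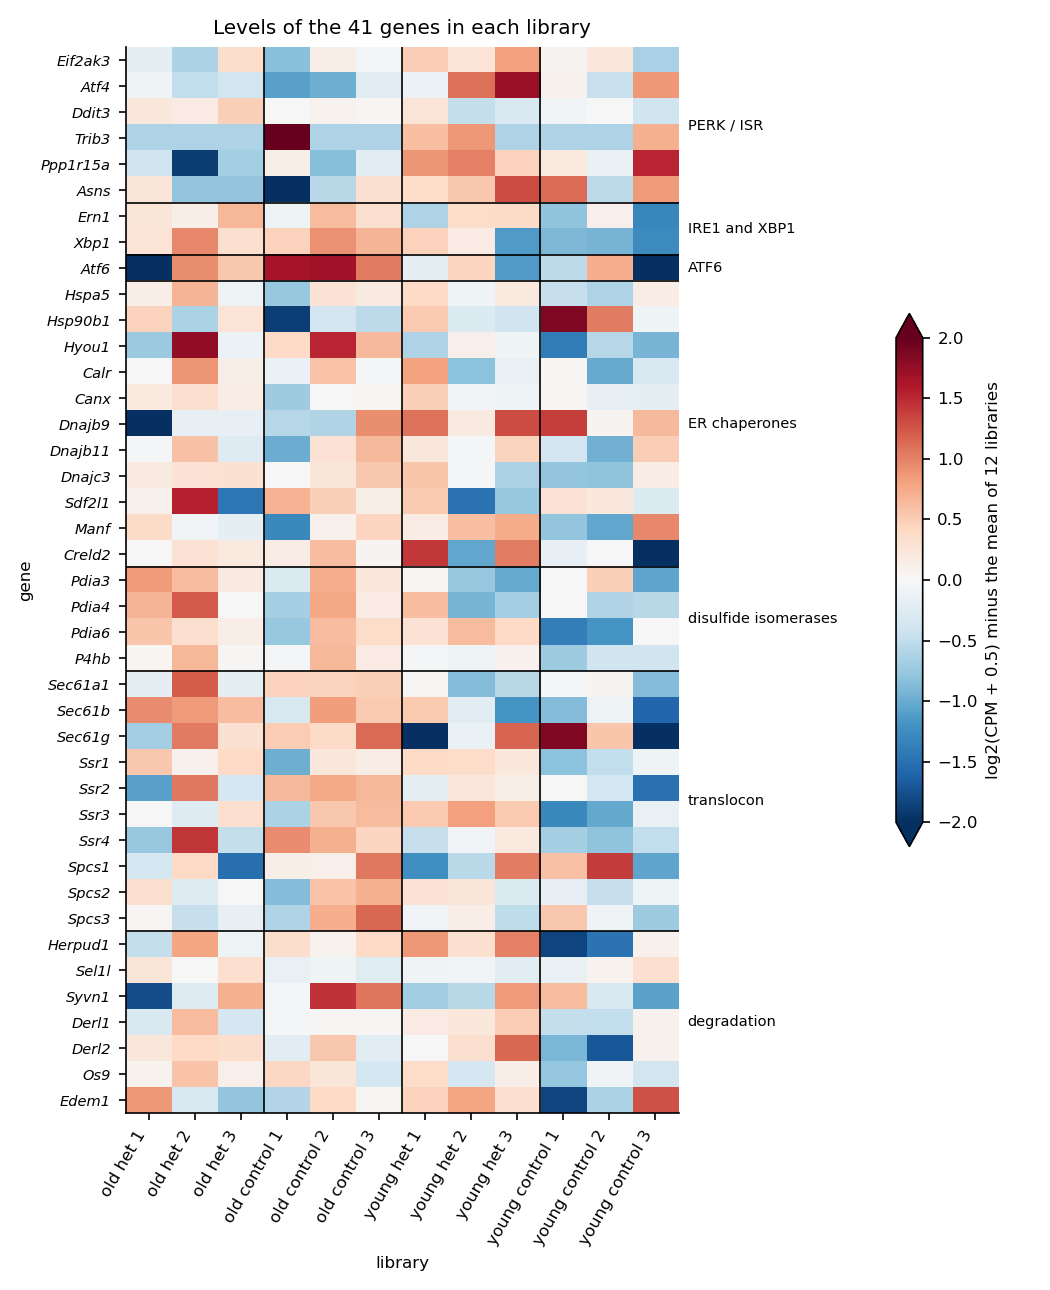
Levels of the 41 members (rows, by branch) in the 12 libraries (columns, in the order old het, old control, young het, young control), as log2(CPM + 0.5) minus the mean of the 12 libraries. The means of 23 of the 40 tested members are lowest in young controls (57.5%, against 37.8% of genes), while Hsp90b1 is highest in young controls 1 and 2.

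More members had their lowest mean in young controls than in any other group, and so did more genes. Of the 40 members past the count filter, 23 had their lowest group mean in young controls (57.5%), against 37.8% of 10604 tested genes. The lowest mean was in old hets for 5 (16.7% of genes), in old controls for 8 (23.5% of genes) and in young hets for 4 (22.0% of genes). The highest mean was in young controls for 3 members (7.5%, against 27.4% of genes) and in old hets for 12 (30%, against 17.6%). It was in old controls for 11 (27.5%, against 32.4%) and in young hets for 14 (35%, against 22.6%). The members together took 1.19 to 2.33% of all counts. In bulk samples such as these, fewer cells of a type and less RNA per cell cannot be told apart. The most abundant were the chaperones Hspa5, Calr, Hsp90b1 and Canx and the factor Atf4, which averaged over 1000 CPM; 16 members averaged 100 to 1000 CPM, 18 averaged 10 to 100 CPM and 2 were under 10. Trib3, a pseudokinase induced by ATF4, was the only member under the count filter: it had 54 counts in old control 1 (4.89 CPM), 2 and 6 in young hets 1 and 2, 1 in young control 3 and 0 in the other 8 libraries.

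Each comparison was tested over 10604 genes with edgeR's quasi-likelihood test, and a gene was called at an adjusted p under 0.05. In young hets against young controls, 0 of 40 tested members were called, with 0.424% of genes called. At an unadjusted p under 0.05 there were 7 members, where the share of genes was 14.0%, and DESeq2 called 2 (Herpud1 and Ssr3) and limma-voom 0. The log2 change was positive for 32 of the 40 members, against 54.2% of genes, with a median of 0.46 over members and 0.08 over genes. In 8 members (Eif2ak3, Pdia6, P4hb, Ssr1, Ssr3, Ssr4, Herpud1 and Derl1) every young het lay above every young control, which held for 9.74% of genes, and in 0 members every young het lay below, against 7.11% of genes. No single member met the threshold, which does not show that the members were at the same level. Without young control 3, edgeR called 3 members (Herpud1, Pdia6 and Ssr3). In that fit the young hets, all with Ddx3y at 0, were set against only the 2 young controls with Ddx3y counts, so sex and genotype cannot be told apart in it. The same holds below wherever young hets are compared with young controls in a fit without young control 3. The difference of het effects includes that comparison. With the share of mitochondrial rRNA in the fit the median over members was 0.15.

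In old hets against old controls, 0 members were called, as were 0 genes (0%), by edgeR, DESeq2 and limma-voom alike. No member had an unadjusted p under 0.05, where 3.58% of genes did. Positive log2 changes numbered 22 and negative ones 18 (46.8% of genes were positive), with a median of 0.06 over members and -0.05 over genes. Ddit3, Canx and Sel1l were above all old controls in every old het (5.21% of genes) and Atf6 was below (5.96% of genes).

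The difference between these contrasts, the het effect in old minus the het effect in young, was called for 0 members and for 0.0849% of genes. At an unadjusted p under 0.05 there were 3 members (12.8% of genes), and DESeq2 called 1 (Hsp90b1) and limma-voom 0. The difference was negative for 30 members and positive for 10 (43.4% of genes were positive), with a median of -0.44 over members and -0.18 over genes. Leaving out 1 library gave 1 call in each of 2 cases, Herpud1 without young control 3 and Ssr4 without old het 2.

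Old controls against young controls gave the only calls by edgeR: 3 of 40 members, against 6.98% of genes. Xbp1 and Hyou1 rose (2.79% of genes were called higher) and Hsp90b1 fell (4.19% called lower). At an unadjusted p under 0.05 there were 12 members, against 23.1% of genes. The log2 change was positive for 28 members (57.9% of genes), with a median of 0.53 over members and 0.22 over genes. Every old control lay above every young control in 9 members (Ddit3, Xbp1, Atf6, Hyou1, Creld2, P4hb, Sec61a1, Ssr2 and Ssr4; 18.9% of genes) and below in Hsp90b1 (12.2% of genes). The share of members called was close to that of all genes. The number called was 0 without young control 1, 1 without young control 2 or old control 2, 5 without young control 3 or old het 2, and 0 with the share of mitochondrial rRNA in the fit, where the median over members was 0.23. The contrast shares the young controls with that of young hets, so a low or high value there enters both.

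In old hets against young hets, 0 members were called and 0.00943% of genes, by edgeR; DESeq2 and limma-voom called 0 members too. At an unadjusted p under 0.05 there were 5 members, against 6.28% of genes. Positive log2 changes numbered 22 (50.6% of genes), with a median of 0.09 over members and 0.01 over genes. Every old het lay above every young het in Pdia3, Sec61b and Sel1l (7.07% of genes), and below in Ppp1r15a, Asns, Dnajb9 and Ssr3 (6.96% of genes).

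**Figure D2:**
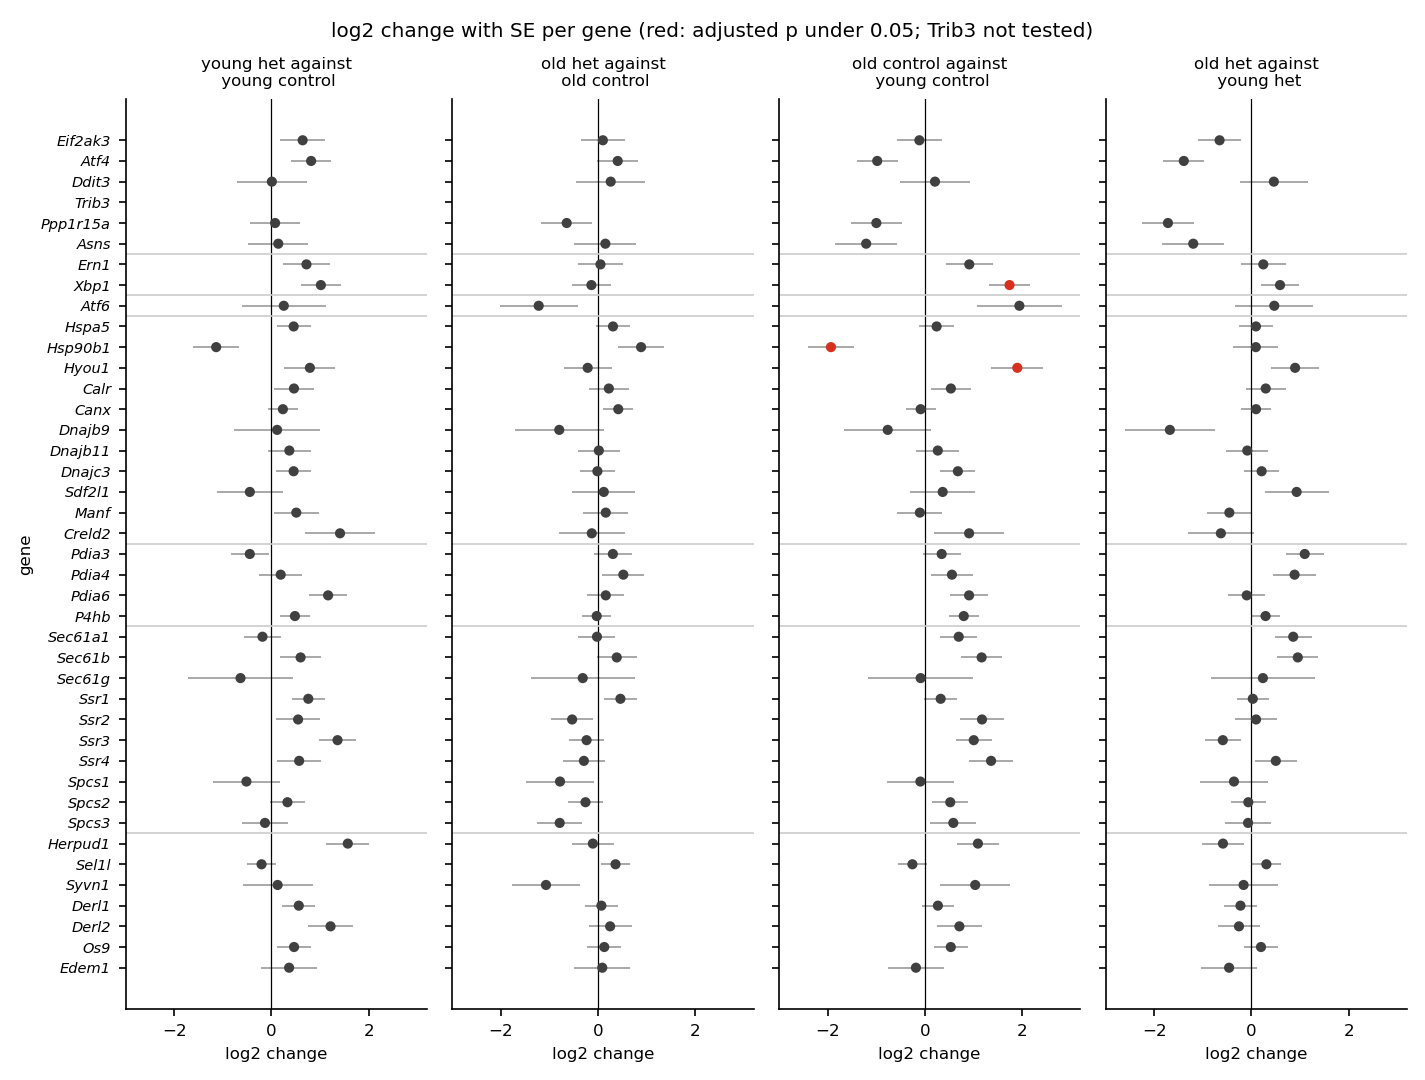
Log2 change (x axis) with its SE of the 40 tested members (rows, by branch) in 4 comparisons (panels), with red points for the 3 members called by edgeR. Most points of young hets against young controls and of old controls against young controls are above 0 (32 and 28 of 40), and those of old hets against old controls centre on 0.06.

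In the IRE1 branch, Xbp1, the factor made active by IRE1 splicing, was higher in all old libraries than in all young controls. It was at 78.9, 127 and 81.7 CPM in old hets, 89.4, 124 and 104 CPM in old controls, 90.3, 72.7 and 29.5 CPM in young hets and 34.8, 33.8 and 26.6 CPM in young controls. Young het 1 lay among the old libraries, young het 2 just below them and young het 3 among the young controls. Xbp1 rose in old controls against young controls, with a log2 change of 1.74 (SE 0.42, adjusted p = 0.0167) by edgeR. The call was lost without old control 2 (adjusted p = 0.0640), without young control 1 (0.0531), without young control 2 (0.0549), without old control 1 and young control 3 together (0.0593) and with limma-voom (0.0911), at log2 changes of 1.62 to 1.76. With the share of mitochondrial rRNA in the fit the log2 change was 1.56 (adjusted p = 0.419). The difference of the het effect was -1.15 on the log2 scale (adjusted p = 0.405). The counts do not separate spliced from unspliced Xbp1 mRNA.

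Ern1, which encodes IRE1α, was at 41.1, 37.5 and 54.9 CPM in old hets, 32.1, 53.7 and 43.1 CPM in old controls, 22.4, 44.7 and 45.1 CPM in young hets and 19.7, 37.2 and 13.7 CPM in young controls. The groups overlapped, with young controls 1 and 3 lowest and old het 3 and old control 2 highest. Atf6, the Golgi-cut sensor, was scarce: 2.41, 21.5 and 16.3 CPM in old hets, 35.5, 36.6 and 23.3 CPM in old controls, 9.70, 15.1 and 4.75 CPM in young hets and 7.56, 18.6 and 0.760 CPM in young controls, of which old het 1 and young control 3 rested on 3 counts and 1 count. Old controls lay above all other groups. The log2 change of Atf6 in old controls against young controls was 1.95 (SE 0.87, adjusted p = 0.182), and that in old hets against old controls was -1.22 (SE 0.81, adjusted p = 0.999). Neither met the threshold.

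In the PERK branch the log2 change was negative for 4 of its 5 tested members in old controls against young controls (42.1% of genes) and for 4 in old hets against young hets (49.4% of genes). By edgeR, DESeq2 and limma-voom 0 were called in either, with 1 at an unadjusted p under 0.05 in the controls (23.1% of genes) and 2 in the hets (6.28% of genes). The log2 change was positive for all 5 in young hets against young controls (54.2% of genes) and for 4 in old hets against old controls (46.8% of genes). Of these, 0 had an unadjusted p under 0.05 in either contrast (14.0% and 3.58% of genes). Most of the branch's signal was Atf4, which made up 88.3 to 96.0% of the summed CPM of the branch in a library. Atf4, the factor translated when eIF2α is phosphorylated, was at 1100.3, 827 and 907 CPM in old hets, 548, 596 and 998 CPM in old controls, 1079, 2514 and 3846 CPM in young hets and 1239, 856 and 2128 CPM in young controls. Young hets 2 and 3 and young control 3 were the highest libraries and old controls 1 and 2 the lowest. Old hets against young hets gave a log2 change of -1.39 (SE 0.42, adjusted p = 0.584), with overlap only between old het 1 and young het 1. Eif2ak3, the gene of PERK, was at 30.6, 22.3 and 44.4 CPM in old hets, 19.3, 37.8 and 33.9 CPM in old controls, 49.2, 42.2 and 61.6 CPM in young hets and 36.3, 40.6 and 22.1 CPM in young controls, with every young het above every young control, though young het 2 exceeded young control 2 by under 2 CPM.

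Ppp1r15a encodes GADD34, which brings a phosphatase to eIF2α and so ends the PERK signal. It was at 22.5, 7.58 and 18.3 CPM in old hets, 32.4, 16.2 and 25.5 CPM in old controls, 55.5, 60.4 and 40.9 CPM in young hets and 34.0, 27.1 and 85.9 CPM in young controls. All young hets were above all old hets, and young control 3 was the highest of the 12. The log2 change in old hets against young hets was -1.72 (SE 0.54, adjusted p = 0.594), which did not meet the threshold. Ddit3, the death-linked factor CHOP, was at 12.1, 11.6 and 14.4 CPM in old hets, 10.3, 10.8 and 10.6 CPM in old controls, 12.4, 7.18 and 8.15 CPM in young hets and 9.83, 10.1 and 7.60 CPM in young controls, on 6 to 114 counts a library. Asns, asparagine synthetase and an ATF4 target, was at 15.2 ± 7.05 CPM in old hets, 13.9 ± 10.00 in old controls, 34.5 ± 13.0 in young hets and 30.8 ± 15.4 in young controls (mean ± SD, n = 3 each here and below).

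**Figure D3:**
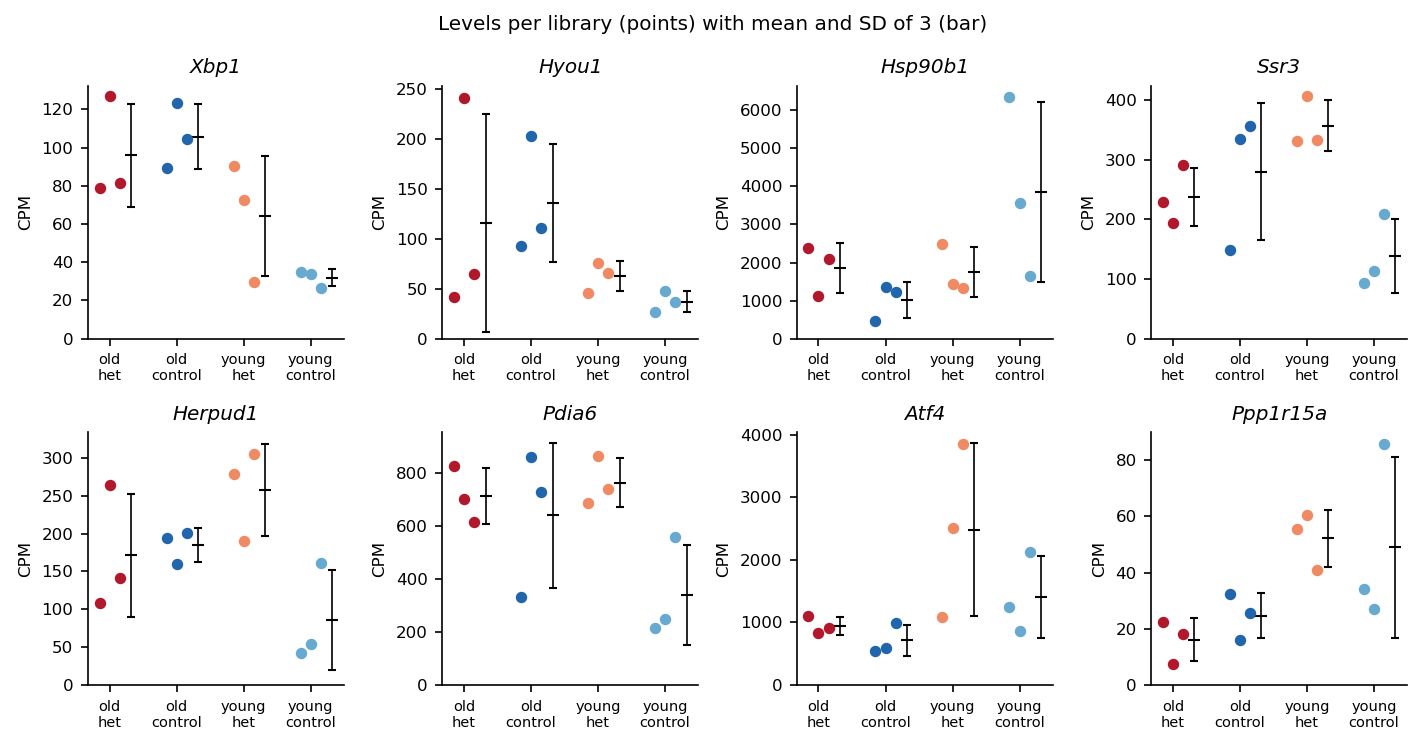
CPM of 8 members in each library (points) with the mean and SD of the 3 libraries (bars), in the order old het, old control, young het, young control. Xbp1 and Hyou1 are higher and Hsp90b1 lower in old controls than in young controls, and young control 3 lies above young controls 1 and 2 in Herpud1 and Pdia6.

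The ER chaperones were the most abundant branch, with 11856 ± 2051 CPM in old hets, 9316 ± 2738 in old controls, 10703 ± 3394 in young hets and 10537 ± 2613 in young controls. These sums overlapped in all 4 groups. The log2 change was positive for 9 of the 11 in young hets against young controls (81.8%, against 54.2% of genes). In old controls against young controls it was positive for 7 (63.6%, against 57.9% of genes). There 1 was called higher (2.79% of genes) and 1 lower (4.19% of genes) by edgeR. Hspa5 (BiP), the Hsp70 chaperone of the ER lumen that also holds the sensors inactive, was at 3177, 4624 and 2692 CPM in old hets, 1704, 3518 and 3259 CPM in old controls, 3823, 2721 and 3304 CPM in young hets and 2099, 1881 and 3191 CPM in young controls. Its lowest libraries were old control 1 and young controls 1 and 2, and its highest was old het 2. Calr and Canx, the lectin chaperones that hold newly glycosylated proteins, were both abundant. Calr averaged 4127 ± 1448 CPM in old hets, 3538 ± 975 in old controls, 3369 ± 1912 in young hets and 2442 ± 832 in young controls. Canx averaged 1681 ± 107 CPM in old hets, 1260.4 ± 335 in old controls, 1576 ± 361 in young hets and 1339 ± 119.9 in young controls. Every old het exceeded every old control in Canx, with 1599 CPM in the lowest old het against 1474 CPM in the highest old control.

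Hsp90b1 (GRP94), the Hsp90 of the ER and a chaperone of integrins and Toll-like receptors, had its highest group mean in young controls. It was at 2379, 1120.1 and 2091 CPM in old hets, 470.3, 1344 and 1214 CPM in old controls, 2499.9, 1434 and 1321 CPM in young hets and 6350.2, 3569 and 1638 CPM in young controls. The young controls held the 2 highest values of the 12 libraries, and old control 1 the lowest. Hsp90b1 fell in old controls against young controls, with a log2 change of -1.93 (SE 0.48, adjusted p = 0.0191) by edgeR. Without young control 1 the log2 change was -1.41 (adjusted p = 0.0965), without old control 1 it was -1.58 (0.0962), and with the share of mitochondrial rRNA in the fit -1.13 (0.590). Young hets against young controls gave -1.14, which edgeR did not call, while 32 of 40 members were positive there. Without old control 1 and young control 3 together, edgeR called Hsp90b1 lower in that contrast. Old hets against old controls gave 0.88 (SE 0.46, adjusted p = 0.999), and the difference of the het effect was 2.02 (SE 0.66, adjusted p = 0.198). DESeq2 called that difference at 2.10 (adjusted p = 0.0437), as did edgeR with no filter on low counts (0.0172).

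Hyou1 (GRP170), a large Hsp70-like exchange factor for BiP, was at 41.9, 241 and 64.7 CPM in old hets, 92.8, 203 and 110.5 CPM in old controls, 45.8, 75.8 and 66.0 CPM in young hets and 26.5, 47.4 and 36.5 CPM in young controls. All old controls were above all young controls, and old het 2 was far above old hets 1 and 3. Hyou1 rose in old controls against young controls, with a log2 change of 1.90 (SE 0.53, adjusted p = 0.0369) by edgeR. This call was close to the threshold: leaving out old control 2 gave an adjusted p of 0.151, old control 3 0.0531, young control 1 0.135, young control 2 0.0693, young control 3 0.0792 and old control 1 with young control 3 0.0794, at log2 changes of 1.50 to 2.13. With limma-voom the adjusted p was 0.108, and with the share of mitochondrial rRNA in the fit the log2 change was 0.92 (0.733).

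Among the cofactors of BiP, Dnajc3 averaged 164 ± 7.82 CPM in old hets, 165 ± 31.4 in old controls, 142 ± 56.9 in young hets and 103 ± 42.2 in young controls, and Dnajb11 80.4 ± 25.8 CPM in old hets, 80.2 ± 39.8 in old controls, 85.7 ± 14.4 in young hets and 65.5 ± 34.1 in young controls. Dnajb9, an inhibitor of IRE1 as well as a BiP cofactor, was scarce, at 4.79 ± 4.15 CPM in old hets, 8.75 ± 6.14 in old controls, 15.9 ± 5.93 in young hets and 14.4 ± 6.86 in young controls, with 0 counts in old het 1. Sdf2l1, found in complexes with the DNAJB proteins, averaged 29.98 ± 27.9 CPM in old hets, 27.9 ± 5.60 in old controls, 16.1 ± 11.8 in young hets and 21.8 ± 4.42 in young controls. Manf, a secreted ER protein that binds BiP, averaged 274 ± 59.3 CPM in old hets, 246 ± 126 in old controls, 375 ± 76.5 in young hets and 262 ± 214 in young controls; young controls 1 and 2 had 150.4 and 127 CPM, and young control 3 had 508 CPM, the highest of the 12. Creld2, an ER stress-inducible secreted protein, averaged 17.2 ± 1.76 CPM in old hets, 18.9 ± 4.22 in old controls, 26.9 ± 17.8 in young hets and 10.4 ± 7.05 in young controls. Of these 6, Creld2 did not overlap between old controls and young controls, nor Dnajb9 between old hets and young hets; the other 4 overlapped in all 4 comparisons between groups.

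The disulfide isomerases form and reshuffle the disulfide bonds of proteins in the ER. Their summed level averaged 2275 ± 414 CPM in old hets, 1992 ± 699.8 in old controls, 1709 ± 160.4 in young hets and 1264 ± 117 in young controls. No young control exceeded 1387 CPM and no young het was under 1571 CPM. Pdia6, which also binds IRE1, was at 825, 699 and 614 CPM in old hets, 332, 859 and 725 CPM in old controls, 687, 864 and 736 CPM in young hets and 214, 247 and 557 CPM in young controls. Young controls 1 and 2 and old control 1 formed the low end, with young control 3 between them and the rest. In young hets against young controls Pdia6 had a log2 change of 1.16 (SE 0.39, adjusted p = 0.175). Without young control 3, edgeR called it, at a log2 change of 1.73 (adjusted p = 0.0296).

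Pdia3 (ERp57), the partner of Calr and Canx, was at 895, 769 and 559 CPM in old hets, 404, 823 and 573 CPM in old controls, 501, 292 and 247 CPM in young hets and 497, 685 and 238 CPM in young controls. The old hets were all above the young hets. Young control 2 lay among the old libraries, and young het 1 and young control 1 were above old control 1. The log2 change in old hets against young hets was 1.10 (SE 0.39, adjusted p = 0.683). P4hb, the classical protein disulfide isomerase, averaged 558 ± 148 CPM in old hets, 569 ± 147 in old controls, 457 ± 28.4 in young hets and 327 ± 38.6 in young controls, with every young control below every other library. Pdia4 (ERp72) averaged 263 ± 108 CPM in old hets, 184 ± 86.2 in old controls, 143 ± 88.8 in young hets and 124 ± 30.5 in young controls and overlapped between all groups.

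**Figure D4:**
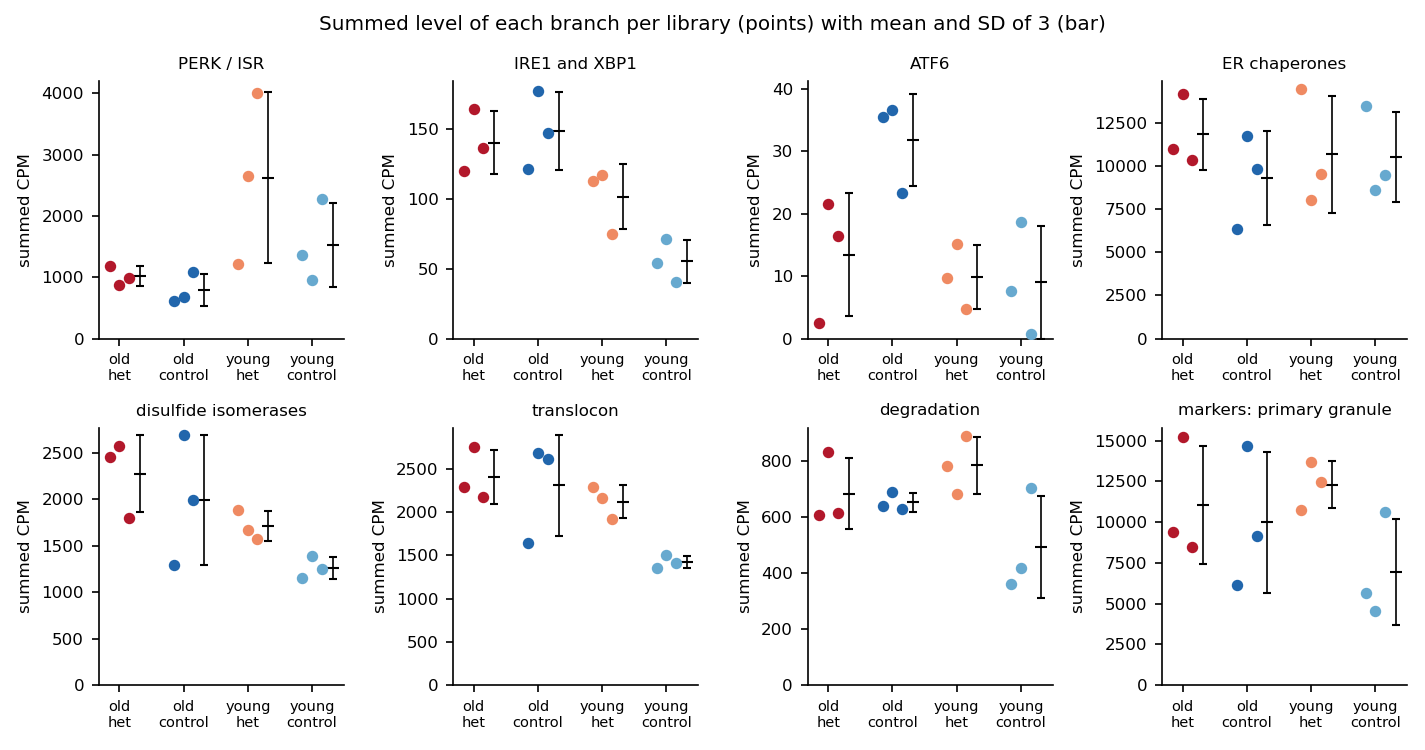
Summed CPM of each branch and of the primary granule markers in each library (points) with the mean and SD of 3 (bars), in the order old het, old control, young het, young control. The translocon sum is 1359 to 1502 CPM in young controls and 1917 to 2288 CPM in young hets, with no overlap. The sums of IRE1 and XBP1, of the disulfide isomerases and of the primary granule markers do not overlap between these groups either.

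The translocon branch, the Sec61 channel with the TRAP subunits (Ssr1 to Ssr4) and the signal peptidase subunits (Spcs1 to Spcs3), had its lowest summed level in young controls. Its summed level was 2293, 2759 and 2175 CPM in old hets, 1640.2, 2680.2 and 2619.9 CPM in old controls, 2288, 2162 and 1917 CPM in young hets and 1359, 1502 and 1409 CPM in young controls. All other libraries exceeded all young controls, old control 1 being the nearest to them. Scaled by plain totals in place of TMM, the young control mean was 1285 CPM, against 1423 CPM, and the young hets stayed above the young controls. The sum is weighted towards abundant members such as Ssr1, which averaged 717 CPM over all libraries. Of the 10 members, the log2 change was positive for 6 and negative for 4 in young hets against young controls (60% positive, against 54.2% of genes). In old controls against young controls it was positive for 8 (80%, against 57.9% of genes). The summed neutrophil primary granule markers, 11 genes with Mpo, Ms4a3 and Prtn3 among them, were at 10764, 13682 and 12477 CPM in young hets against 5632, 4517 and 10623 CPM in young controls, and 9423, 15206 and 8497 CPM in old hets against 6137, 14649 and 9172 CPM in old controls. Basophil and mast cell markers, 12 genes, averaged 1377 ± 64.5 CPM in old hets, 1229 ± 203 in old controls, 1494 ± 75.0 in young hets and 944 ± 391 in young controls. Their range was 1428 to 1575 CPM in young hets and 687 to 1395 CPM in young controls. The separation of these groups was thus not particular to the translocon or the isomerases. It also held for the ER folding and glycosylation genes listed beside the members (6969 to 7526 against 5936 to 6778 CPM). The degradation genes listed there were at 1434 to 1603 against 941 to 1393 CPM. The part of the markers in the result was not tested.

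Ssr3 had the smallest p of any member in young hets against young controls. It was at 229, 193 and 291 CPM in old hets, 148, 336 and 357 CPM in old controls, 331, 407 and 334 CPM in young hets and 93.7, 113 and 209 CPM in young controls. All young hets were above all young controls, of which young control 3 was the highest, and old control 1 lay between young controls 2 and 3. The log2 change was 1.36 (SE 0.37, adjusted p = 0.104) by edgeR. DESeq2 called it, at 1.29 (adjusted p = 0.0343), as did edgeR with no filter on low counts (0.0185) and without young control 3 (1.80, 0.0292). The het effect in old minus that in young was -1.60 (SE 0.52, adjusted p = 0.198).

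Ssr1 averaged 872 ± 138 CPM in old hets, 634 ± 249 in old controls, 856 ± 56.3 in young hets and 506 ± 129.6 in young controls, with every young het above every young control. Ssr4 was at 61.2, 279 and 74.5 CPM in old hets, 199, 170.5 and 140.0 CPM in old controls, 75.6, 99.7 and 119 CPM in young hets and 65.0, 59.2 and 73.8 CPM in young controls. Old het 2 and the old controls were high, and the other old hets were close to the young libraries; the log2 change in old controls against young controls was 1.36 (SE 0.45, adjusted p = 0.0729). Ssr2 averaged 150.2 ± 115 CPM in old hets, 219 ± 8.52 in old controls, 142 ± 20.8 in young hets and 97.1 ± 45.2 in young controls, and old het 2 was again the highest of its group, at 281 CPM against 63.6 and 106 CPM. The 4 TRAP subunits, which act in 1 complex, were not alike in old het 2, the lowest old het in Ssr1 and Ssr3 and the highest in Ssr2 and Ssr4. In Ssr1 it had 724 CPM, against 996 and 897 CPM in old hets 1 and 3.

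Sec61a1, the channel-forming subunit, averaged 403 ± 247 CPM in old hets, 409 ± 4.91 in old controls, 223 ± 72.1 in young hets and 253 ± 79.3 in young controls, and old control values of 408, 405 and 415 CPM were nearly equal. Sec61b, a small tail-anchored subunit, was at 398, 376 and 318 CPM in old hets, 167, 373 and 298 CPM in old controls, 298, 177 and 90.8 CPM in young hets and 113, 195 and 69.2 CPM in young controls. All old hets were above all young hets, and old control 1 lay among the young libraries; the log2 change in old hets against young hets was 0.95 (SE 0.42, adjusted p = 0.736). Sec61g, the gamma subunit, was scarce at 8.96 ± 5.18 CPM in old hets, 11.4 ± 3.52 in old controls, 7.64 ± 7.51 in young hets and 11.9 ± 12.9 in young controls, with 0 counts in young control 3. Of the signal peptidase subunits, which cut signal peptides off, Spcs2 averaged 182 ± 37.2 CPM in old hets, 218 ± 106 in old controls, 191 ± 38.8 in young hets and 151 ± 20.2 in young controls, and Spcs1 15.9 ± 9.71 CPM in old hets, 27.9 ± 11.7 in old controls, 20.6 ± 17.4 in young hets and 30.3 ± 21.7 in young controls. Spcs3 was at 43.5, 30.7 and 37.9 CPM in old hets, 28.0, 71.1 and 95.1 CPM in old controls, 40.8, 46.8 and 29.7 CPM in young hets and 62.0, 40.6 and 25.9 CPM in young controls, with the old hets below old controls 2 and 3 and above old control 1 (log2 change -0.79, SE 0.47, adjusted p = 0.999).

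In ER-associated degradation, misfolded proteins are passed back to the cytosol and ubiquitinated. The 7 members summed to 606, 831 and 612 CPM in old hets, 639, 689 and 626 CPM in old controls, 780.1, 682 and 888 CPM in young hets and 361, 418 and 701 CPM in young controls. Young controls 1 and 2 were the lowest libraries, and young control 3 lay among the rest. Herpud1, a membrane organiser of the degradation complex, was at 109, 264 and 141 CPM in old hets, 195, 159 and 201 CPM in old controls, 279, 189.7 and 306 CPM in young hets and 42.3, 54.1 and 161 CPM in young controls. All young hets were above all young controls, and young controls 1 and 2 were the lowest of the 12. The log2 change was 1.57 (SE 0.44, adjusted p = 0.115) by edgeR. Without young control 3 it was 2.44 (adjusted p = 0.00732), which passed, as it did with DESeq2 (1.50, 0.0416) and with no filter on low counts (1.60, 0.00640). The het effect in old minus that in young was -1.68 (SE 0.61, adjusted p = 0.239), and without young control 3 it was -2.52 (0.0254).

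Derl2 and Derl1 are derlins, membrane proteins of the exit channel. Derl2 was at 58.8, 66.2 and 64.0 CPM in old hets, 43.2, 73.2 and 42.7 CPM in old controls, 50.2, 63.2 and 112 CPM in young hets and 26.5, 15.2 and 53.2 CPM in young controls. Young controls 1 and 2 were lowest and young het 3 highest, and young control 3 lay among the young hets (log2 change 1.21, SE 0.46, adjusted p = 0.230). Derl1 averaged 126 ± 51.9 CPM in old hets, 120.2 ± 3.06 in old controls, 147 ± 19.3 in young hets and 99.5 ± 24.5 in young controls, with every young het above every young control. Syvn1 (HRD1), the ubiquitin ligase of the complex, was at 4.02, 12.4 and 24.8 CPM in old hets, 14.5, 41.3 and 31.7 CPM in old controls, 9.03, 10.0 and 27.2 CPM in young hets and 23.4, 11.8 and 6.84 CPM in young controls, on as few as 5 counts in old het 1. Its log2 change in old hets against old controls was -1.07 (SE 0.71, adjusted p = 0.999).

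Sel1l, the partner that stabilises HRD1, averaged 147 ± 17.3 CPM in old hets, 114 ± 6.13 in old controls, 119 ± 6.88 in young hets and 137 ± 21.8 in young controls, with every old het above every old control. Os9, a lectin that picks glycoproteins for disposal, averaged 109.6 ± 22.6 CPM in old hets, 100.1 ± 26.3 in old controls, 96.0 ± 22.7 in young hets and 70.0 ± 16.7 in young controls. Edem1, which trims mannose from misfolded glycoproteins, averaged 53.2 ± 33.2 CPM in old hets, 49.9 ± 16.4 in old controls, 72.7 ± 11.95 in young hets and 55.8 ± 57.8 in young controls, with 13.6, 32.1 and 122 CPM in the single young controls.

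Of 112 other genes of ER stress, folding, targeting and degradation that were listed beside the members, 104 were in the table and 91 passed the filter. In young hets against young controls 0 rose and 1 fell by edgeR (1.10%, against 0.424% of genes; 15 or 16.5% at an unadjusted p under 0.05, against 14.0% of genes, with 3 called higher and 2 lower by DESeq2, 0 and 1 by limma-voom): Dnajc1, an ER membrane J-protein, was at 368, 146 and 157 CPM in young hets and 949, 932 and 681 CPM in young controls, with a log2 change of -1.93 (SE 0.41, adjusted p = 0.0459) by edgeR. All young hets were below all young controls. That call was lost in 8 of the 12 fits that left out 1 library, with adjusted p between 0.0518 and 0.185. With the share of mitochondrial rRNA in the fit its log2 change was -1.26 (adjusted p = 0.526). Erp29, an ER lumen escort protein, had a log2 change of 1.35 (SE 0.32, adjusted p = 0.0559) and did not meet the threshold. It was called by DESeq2 (0.00289), with no filter on low counts (0.0183), without old het 2 (0.0394), without young control 3 (0.0378) and without old control 1 and young control 3 together (0.0178). In old controls against young controls 4 rose and 5 fell by edgeR (9.89% of the 91, against 6.98% of genes), compared with 9 and 7 by DESeq2 and 1 and 5 by limma-voom. Those that rose were Ostc, a subunit of the oligosaccharyltransferase (1.68), Tram1, a translocon partner (1.33), Tmbim6, an ER membrane inhibitor of cell death (1.16), and Ganab, a glucosidase that trims new glycans (1.11). Those that fell were Dnajc1 (-2.30), Mthfd2, a mitochondrial folate enzyme induced by ATF4 (-1.94), Mogs, the other trimming glucosidase (-1.76), Traf2, an adaptor of IRE1 (-1.74), and Slc7a5, an amino acid carrier and ATF4 target (-1.57), all on the log2 scale. Their adjusted p-values by edgeR lay between 0.00257 and 0.0498. All 9 calls were lost with the share of mitochondrial rRNA in the fit. There the log2 changes of Ostc (2.15), Tram1 (1.44) and Tmbim6 (1.39) were larger. Those of Dnajc1 (-1.32), Mthfd2 (-1.56), Mogs (-1.59), Traf2 (-1.63), Ganab (0.96) and Slc7a5 were smaller in size. The share in young controls (4.35 to 8.22%) overlapped neither that in old controls (1.70 to 2.38%) nor that in young hets (2.999 to 3.51%). Share and group can hardly be told apart in such fits, here and above. Of the 12 fits that left out 1 library, the calls of Dnajc1, Mthfd2 and Mogs were lost in 0, those of Ostc in 4, of Tram1 and Traf2 in 5 each, and of Tmbim6, Ganab and Slc7a5 in 8 each. The log2 change of Slc7a5 was -0.73 with the share of mitochondrial rRNA in the fit (adjusted p = 0.752) and -0.93 without old control 1 and young control 3 together (0.344).

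In old hets against old controls 0 of the 91 were called by edgeR, DESeq2 or limma-voom, and 1 had an unadjusted p under 0.05 (1.10%, against 3.58% of genes); the smallest p-values were those of Slc7a5 (log2 change 1.001, adjusted p = 0.999) and Dnajc1 (0.80, 0.999). The het effect in old minus that in young was called for 0 by edgeR (14 or 15.4% at an unadjusted p under 0.05, against 12.8% of genes, 2 called by DESeq2 and 0 by limma-voom), with Dnajc1 at 2.73 (adjusted p = 0.0616) and Mogs at 1.51 (0.191). For old hets against young hets 0 were called by edgeR (3 or 3.30% at an unadjusted p under 0.05, against 6.28% of genes, 0 called by DESeq2 and by limma-voom), with Ganab at 0.90 and Tram1 at 0.99 (adjusted p = 0.675 for both).

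Markers of cells that secrete through the ER were read beside these values. The 12 B and plasma cell markers found in the table summed to 29.1 to 39.2 CPM in old hets, 19.9 to 109 CPM in old controls, 50.5 to 60.2 CPM in young hets and 95.8 to 145 CPM in young controls. Single markers of this list were not alike. Cd79a was at 0 in 11 libraries, but in young controls Ebf1 was at 74.1, 60.9 and 43.3 CPM and Pax5 at 43.8, 44.0 and 16.7 CPM. Igj and Igkc, by contrast, were highest in old control 1, at 48.4 and 26.3 CPM. Monocyte markers, 8 genes, averaged 1367 ± 153 CPM in old hets, 1344 ± 276 in old controls, 924 ± 217 in young hets and 747 ± 203 in young controls, and erythroid markers, 11 genes, 957 ± 289.6 CPM in old hets, 1224 ± 849.8 in old controls, 1859.9 ± 479 in young hets and 1849.8 ± 222 in young controls. T and NK cell markers, 8 genes, summed to 37.2 to 147 CPM in old hets, 82.8 to 148 CPM in old controls, 36.2 to 116 CPM in young hets and 25.4 to 41.8 CPM in young controls. The part of these shifts in the members' values was not tested.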

How the data were processed

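RNA of 12 libraries was counted per gene symbol; the deposited table holds the authors' whole-number counts, not normalized. Per the labels' protocols the libraries came from a Lexogen 3' kit, and the submitters' processing notes name mm9 as the build and STAR 2.4, HTSeq 0.6.1 and DESeq2 as tools, without roles. The sources used here do not give the annotation, the strandedness of the counting or whether molecular identifiers were used. The floor of 3 counts therefore covers counting error only. Counts were tested with the quasi-likelihood F test of edgeR 4.0.16 (R 4.3.3), in 1 fit of 4 groups with TMM scaling, after filterByExpr (smallest count 10, smallest total 15), which kept 10604 of 33924 genes; p-values were Benjamini-Hochberg adjusted over these and called under 0.05. SE is the log2 change divided by the square root of F. Alternatives were DESeq2 1.42.0, limma-voom (limma 3.58.1), size factors, no filter, only the groups compared, the share of mitochondrial rRNA in the fit, left-out libraries and, for branch sums, plain totals. The script was tested on simulated data. Groups came from the genotype and age labels. The 41 members, the branches, the other lists and the tests were chosen with earlier results of these data known. Named with every sample were members called, the 4 of smallest p in each comparison, the member of smallest p in each branch, and the sensors, Xbp1, Atf4, Ddit3 and Hspa5. Of the other pathway genes, those called and the 2 of smallest p in each comparison were named by their log2 changes. Only Dnajc1 among them was given with library levels, in young hets and young controls. Promoters were taken from RefSeq (GRCm38.p6), which held 34 of the 41 members. Of the listed pathway and marker symbols, 11 were not found in the table.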

Additional observations from a re-analysis of the deposited data

How the results depend on the processing

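For young hets against young controls the number of members called, 0, became 2 with DESeq2, 2 with no filter on low counts, 5 without old control 1 and young control 3 together and 0 to 3 when 1 library was left out, while the number of genes called, 45, became 356 with DESeq2, 23 with limma-voom, 258 with no filter, 13 with only the groups compared, 1 with the share of mitochondrial rRNA in the fit, 241 without the 2 libraries and 1 to 157 when 1 was left out. For old hets against old controls 0 members were called under every alternative run, and genes numbered 11 with no filter and 0 to 1 with 1 library left out. For the het effect in old minus that in young, members numbered 1 with DESeq2, 1 with no filter, 2 without the 2 libraries and 0 to 1 with 1 left out; genes, 9 at first, numbered 284 with DESeq2, 2 with limma-voom, 216 with no filter, 0 with that share in the fit, 59 without the 2 libraries and 2 to 294 with 1 left out. For old controls against young controls, members numbered 3 at first, 1 with limma-voom, 6 with no filter, 0 with that share in the fit and 0 to 5 with 1 left out; genes, 740 at first, numbered 1321 with DESeq2, 0 with that share in the fit, 463 without the 2 libraries and 315 to 886 with 1 left out. For old hets against young hets 0 members were called under every alternative run, and genes, 1 at first, numbered 25 with DESeq2, 22 with no filter, 2 with only the groups compared, 2 with that share in the fit, 8 without the 2 libraries and 0 to 7 with 1 left out. The cause of these shifts was not tested. No log2 change of a named gene changed sign. The median over members in the difference of het effects was -0.76 without the 2 libraries, against -0.44, and plain totals gave disulfide isomerase sums of 1143 CPM in young controls and degradation sums of 720.0 CPM in old controls. No paired analysis was possible because the replicate numbers follow accession order and pair no samples across groups. With 3 libraries a group and young control 2 at 645460 counts, small changes were not detectable at this depth, in scarce members such as Atf6, Sec61g and Syvn1 and in others, so 0 calls do not show that members did not differ.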

Other observations

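In old control 1, 10 of 40 tested members (25.0%) were at least 2-fold below both other old controls, on CPM plus 0.5, against 8.49% of tested genes. They were Asns, Hsp90b1, Dnajb11, Manf, Pdia6, Ssr1, Ssr3, Spcs2, Spcs3 and Syvn1, which span the chaperones, the isomerases, the translocon and degradation. This library was the deepest and had 69.1 CPM of Ly6a. The 9 stem and multipotent progenitor markers summed to 527 to 965 CPM in old hets, 1857, 658 and 601 CPM in old controls 1, 2 and 3, 638 to 723 CPM in young hets and 547 to 677 CPM in young controls. Among them, in old controls 1, 2 and 3, Meis1 was at 384, 44.1 and 37.0 CPM and Hlf at 267, 31.7 and 34.3 CPM. The 8 megakaryocyte markers summed to 109 to 262 CPM in old hets, 429, 202 and 303 CPM in old controls 1, 2 and 3, 91.3 to 273 CPM in young hets and 105 to 178 CPM in young controls. The part of these markers in the members' values was not tested. In old het 2, 5 members (Hyou1, Sdf2l1, Sec61a1, Ssr2 and Ssr4) were at least 2-fold above both other old hets (12.5% of members, 10.4% of genes, a similar share), and Mpo was at 8435 CPM against 3859 and 4015 CPM. In young control 3, 5 members were above and 7 below (12.5% and 17.5%, against 11.3% and 21.4% of genes, which are close): Ppp1r15a, Manf, Pdia6, Herpud1 and Edem1 were above, and Atf6, Hsp90b1, Creld2, Pdia3, Sec61g, Ssr2 and Spcs1 below. In the other 9 libraries 0 to 3 members lay above and 0 to 3 below.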
